A study of Homo sapiens with 19 samples.

Results

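The clustered protocadherins are cadherin-like cell-surface proteins encoded side by side on human chromosome 5 in an alpha, a beta and a gamma cluster. In the alpha and gamma clusters each gene has its own promoter and its own variable exon, which is spliced to constant exons shared by the whole cluster, whereas each beta gene is a single exon. Promoter choice is held by DNA methylation and by looping of the cluster through the zinc-finger protein CTCF and the ring complex cohesin. In neurons the proteins pair like with like across membranes and give single cells a surface identity, and the C-type genes at the ends of the alpha and gamma clusters are regulated apart from the others. Members were taken as genes whose current RefSeq symbol begins with PCDHA, PCDHB or PCDHG followed by a letter or number. A probe was matched to 50 such genes of 20503 genes in all, 15 in the alpha, 18 in the beta and 17 in the gamma cluster, including the pseudogenes PCDHB17P, PCDHB18P, PCDHB19P and PCDHGB8P. PCDHB3, PCDHGA1, PCDHGA4, PCDHGA6, PCDHGB5, PCDHGA10 and PCDHGA11 were not analysed here.

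Human embryonic stem cells of the line KhES-3 were induced toward brown adipocytes. The labels of the samples give culture on irradiated mouse embryonic fibroblast feeder cells beforehand, whereas the study's methods give a feeder-free system. The medium was serum-free with IGF-II, BMP4, VEGFA, KITLG, FLT3LG and IL-6, in low-attachment dishes, and 19 samples were taken from 3 to 72 h. Each RNA was hybridised to 1 one-colour array, with no replicates, no uninduced array and 1 cell line, so a trend was set against the scatter of single arrays about its line, and the spread between cultures is unknown. The arrays of 3, 4, 6, 8, 10 and 12 h shared slide 1, those of 14, 16, 20, 24, 28, 32, 36 and 42 h slide 2, and those of 48, 54, 60, 66 and 72 h slide 3, which was scanned on a later day, so time and slide cannot be fully told apart. All signals are processed intensities scaled to a common 75th percentile of 871. The array software's flag for a spot well above background was used to call a gene detected.

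Of the 50 genes, 40 had a promoter window in the RefSeq promoter table (build GRCh38.p14), which gave 44 windows of 250 bases before and 50 after the start of a transcript. The stretches below are shown because they hold the letters that the members have in common just before their starts, and because most of the genes shown were called falling or rising. Capitals mark the letters CGCT, a core known from protocadherin promoters. They show a match of letters alone, and whether each stretch, those of the C-type genes among them, holds the known promoter element was not analysed here. All stretches lie on the plus strand and end before the annotated start.
PCDHA1, chr5:140786072-140786131: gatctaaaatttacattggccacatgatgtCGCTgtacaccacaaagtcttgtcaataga
PCDHA6, chr5:140827883-140827942: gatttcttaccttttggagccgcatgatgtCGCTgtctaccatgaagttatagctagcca
PCDHA10, chr5:140855827-140855886: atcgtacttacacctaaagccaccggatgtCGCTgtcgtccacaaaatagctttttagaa
PCDHB2, chr5:141094530-141094589: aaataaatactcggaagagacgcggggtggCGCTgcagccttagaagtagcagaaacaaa
PCDHB4, chr5:141121709-141121768: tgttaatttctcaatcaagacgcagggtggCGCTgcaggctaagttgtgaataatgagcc
PCDHB5, chr5:141135165-141135205: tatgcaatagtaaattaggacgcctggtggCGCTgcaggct
PCDHB9, chr5:141187060-141187119: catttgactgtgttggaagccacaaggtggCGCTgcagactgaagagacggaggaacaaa
PCDHB10, chr5:141192285-141192344: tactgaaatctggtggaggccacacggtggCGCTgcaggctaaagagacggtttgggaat
PCDHGA3, chr5:141343753-141343812: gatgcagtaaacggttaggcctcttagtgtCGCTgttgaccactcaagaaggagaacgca
PCDHGA5, chr5:141364093-141364152: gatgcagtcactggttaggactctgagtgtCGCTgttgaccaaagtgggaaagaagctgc
PCDHGA7, chr5:141382635-141382694: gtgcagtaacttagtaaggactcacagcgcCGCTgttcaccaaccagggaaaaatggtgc
PCDHGA8, chr5:141392554-141392613: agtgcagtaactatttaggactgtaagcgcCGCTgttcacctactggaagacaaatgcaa
PCDHAC2, chr5:140966351-140966410: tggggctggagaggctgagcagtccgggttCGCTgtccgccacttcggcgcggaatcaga
PCDHGC4, chr5:141484938-141484997: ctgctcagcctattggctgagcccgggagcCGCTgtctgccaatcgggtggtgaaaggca

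The letters around the core differed by cluster. CGCT or its reverse AGCG lay within the last 100 bases before the start in 39 of the 44 windows (88.6%), against 44.8% of all 35116 promoter windows of the same table. On the gene's own strand it did so in 37 of the 44 windows (84.1%), against 28.1% of all. The longer strings that follow contain the core, are the letters around it in PCDHB2, PCDHA1 and PCDHGA3, were chosen after the sequences were read, and were searched on both strands over the whole window. GGTGGCGCTGC lay in 11 of 13 beta windows and in 36 of all 35116 windows (0.103%). ATGTCGCTGT lay in 5 of 11 alpha windows that are not C-type and in 11 of all windows (0.0313%), and CGCTGTTGACCA in 3 of 15 such gamma windows and in 5 of all windows (0.0142%). The windows also differed in base composition: the median share of G and C was 36.0% for alpha, 39.7% for beta and 47.3% for gamma genes, 62.3% for the C-type genes and 58.7% for all promoters. CGCTG on the gene's strand lay 10 to 100 bases before the start in 9 of the 13 genes that rose, in 6 of the 9 windowed genes that fell and in 12 of the 13 windowed genes not called, and PCDHA11, PCDHB8 and PCDHGB2, which moved over time, were without it there.

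Most members were detected. Detection on 10 or more of the 19 arrays was reached by 13 of 15 alpha, 14 of 18 beta and 15 of 17 gamma genes, 42 of 50 in all (84.0%), beside 78.6% of all genes. On all 19 arrays this held for 10 alpha, 10 beta and 8 gamma genes, 28 of 50 (56.0%), beside 68.2% of all genes. The genes never well above background were PCDHA2 and PCDHA8, PCDHB1, PCDHB6, PCDHB7 and the pseudogene PCDHB19P, and the C-type gene PCDHGC3. PCDHGB8P passed on the 28 h array alone, with a signal of 26.8. The number of members detected was 39 to 43 per array apart from 29 at 14 h and 33 at 16 h, and these arrays also had the fewest of all probes well above background. Most tested members with a gap failed to be well above background only at 14 h, at 16 h or at both. PCDHB17P, PCDHGA9 and PCDHGC5 also had gaps at other hours, as the dots in the map of all members show.

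**Figure D1:**
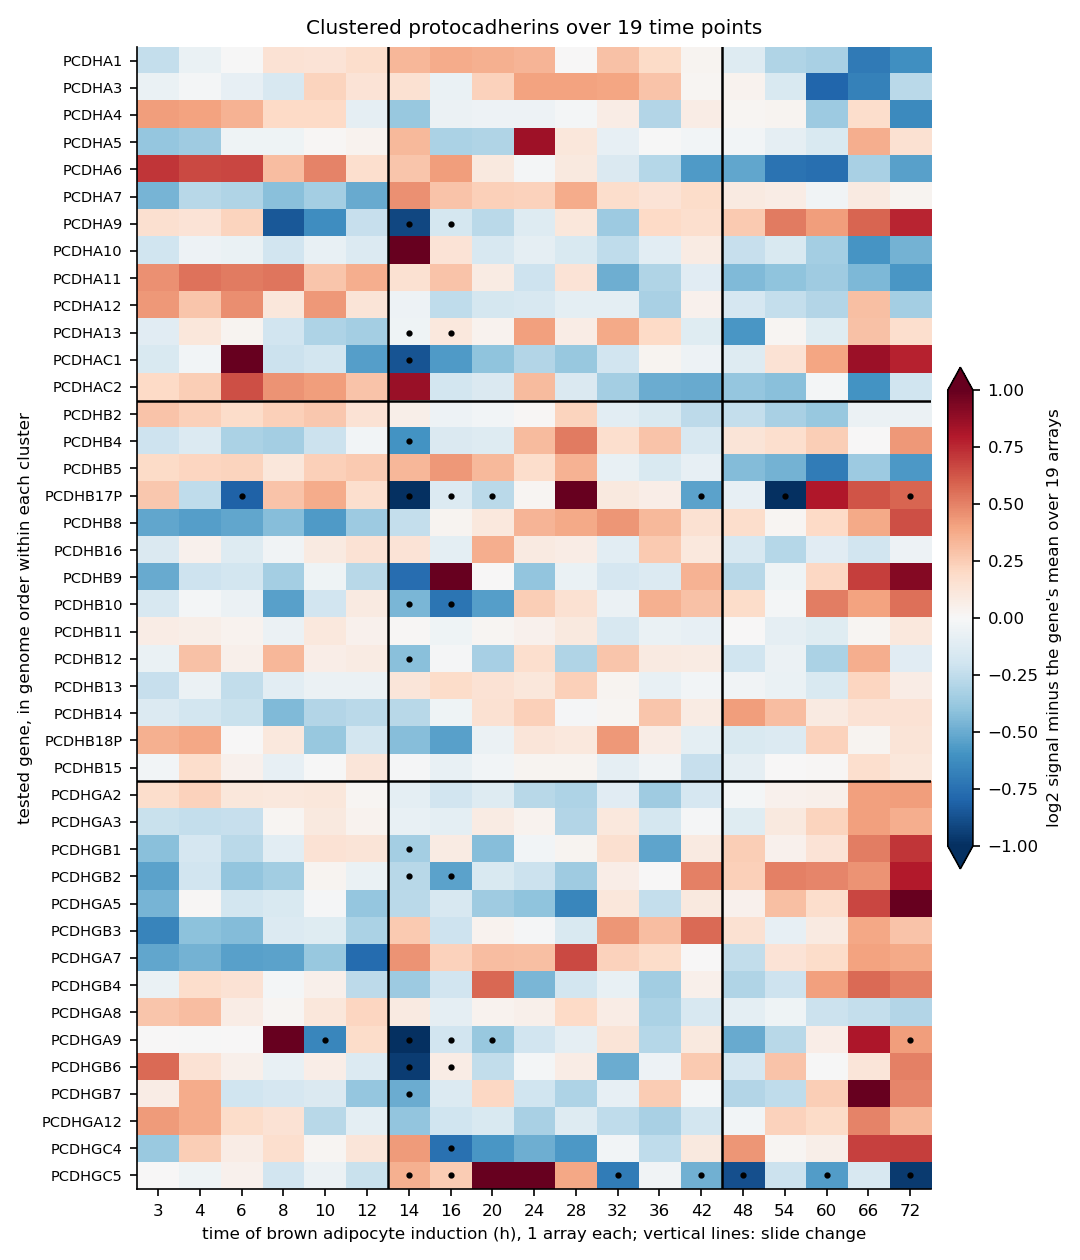
Log2 signal of the 42 tested clustered protocadherins minus each gene's own mean over the 19 arrays, by hour (x axis) and in genome order within the alpha, beta and gamma clusters (y axis). Red is above and blue below the gene's mean, colours end at 1 log2 unit, dots mark arrays where the spot was not well above background, and vertical lines mark the change of slide. PCDHA6 and PCDHA11 go from red to blue, while PCDHB8 and PCDHGB2 go from blue to red.

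Called alpha genes mostly fell and called gamma genes mostly rose over the 72 h. Of 13 tested alpha genes 7 fell and 1 rose, of 14 beta genes 2 fell and 5 rose, and of 15 gamma genes 1 fell and 7 rose, by the slope of log2 signal on hours at a limma adjusted p under 0.05. Over all 16694 genes tested 29.8% fell and 24.6% rose. Taken as one family, 23 of the 42 members were called, which is close to the 54.4% of all genes called in either direction. The median change from the mean of 3, 4 and 6 h to the mean of 60, 66 and 72 h was -0.45 for alpha, 0.13 for beta and 0.50 for gamma genes on the log2 scale, beside -0.05 for all genes. It was above 0 for 5 of 13 alpha, 8 of 14 beta and 12 of 15 gamma genes, beside 7825 of all 16694 genes. The difference between clusters was not tested, since genes of a cluster are not replicates of it. All 15 coding alpha genes end at the same annotated position, as do all 22 coding gamma genes, so transcripts of a cluster can share exons. Where in a gene each probe lies was not analysed here.

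**Figure D2:**
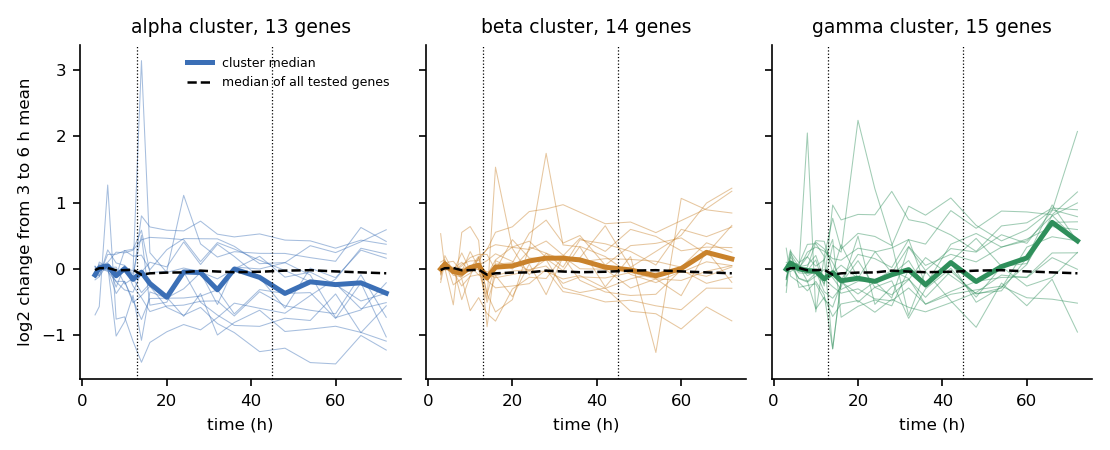
Log2 change of each tested member from its mean at 3, 4 and 6 h (thin lines), with the cluster median (thick line) and the median of all tested genes (dashed), by hour. The gamma median was -0.19 at 48 h and 0.70 at 66 h, and the alpha median was -0.37 at 72 h. Dotted lines mark the change of slide.

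With the slide as a block 4 members stayed called: PCDHA6 fell (adjusted p = 0.0497), and PCDHB8 (adjusted p = 0.0311), PCDHB10 (adjusted p = 0.0187) and PCDHGB2 (adjusted p = 0.0074) rose. The block left 4.12% of all genes rising and 5.97% falling. The scaling also mattered. Scaling to the array median moved the median late minus early change of all genes to -0.42, and scaling to the spike-in RNA moved it to -0.70. On the array median 7 alpha, 6 beta and 2 gamma genes fell and 0 alpha, 1 beta and 2 gamma genes rose, while 44.5% of all genes fell and 10.6% rose. On the spike-in RNA 7 alpha, 6 beta and 2 gamma genes fell and 1 gamma gene rose, while 44.5% of all genes fell and 3.58% rose. The 7 alpha genes that fell were the same 7 under both scalings, and also with normexp background correction and quantile normalisation, where 26.0% of all genes fell and 22.5% rose. The median gamma change was 0.13 on the array median and -0.15 on the spike-in RNA, and the beta median turned negative under both. The other settings called 19.0% of all genes rising and 22.3% falling with no filter on dim probes, 23.6% and 33.9% among genes detected on all arrays, and 24.6% and 29.9% on log2 hours. A cubic fit, which tests any change over time, called 37.8% with a straight line above 0 and 41.7% with a line below 0.

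**Figure D3:**
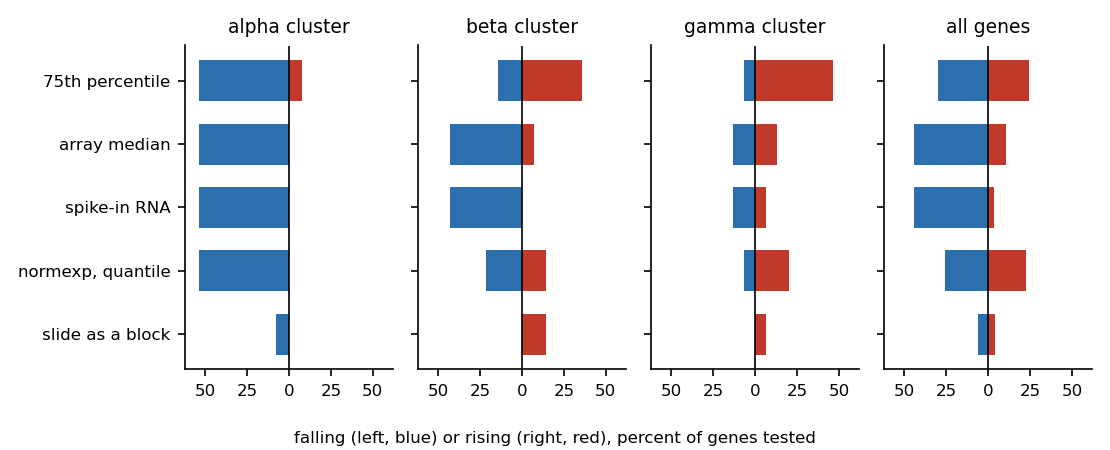
Share of tested genes that fell (blue, to the left of 0) or rose (red, to the right), in percent, for each cluster and for all genes, under 4 ways of scaling the arrays and with the slide as a block. The falling share of the alpha cluster was 53.8% under each of the 4 scalings and 7.69% with the block. Of all genes 29.8% fell at the 75th percentile and 44.5% on the array median. On the spike-in RNA 44.5% fell, with normexp and quantile 26.0%, and with the block 5.97%. The rising share of the gamma cluster was 46.7% at the 75th percentile, 13.3% on the array median and 6.67% on the spike-in RNA. Of all genes 24.6%, 10.6% and 3.58% rose under the same scalings.

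Among the alpha genes PCDHA6 had the steepest fall. Its signals were 346, 332, 336, 261, 297 and 237 on slide 1. They were 255, 282, 226, 208, 226, 191, 173 and 142 on slide 2 and 147, 127, 125, 168 and 144 on slide 3. The 5 arrays of slide 3 all lay below the 6 of slide 1, and from 42 h on the signal lay between 125 and 168. From the early to the late arrays the mean went from 338 to 145, a log2 change of -1.22, with a slope of -0.020 per hour (SE 0.0022, adjusted p = 5.3e-07). PCDHA11 fell from 1476, 1564 and 1544 at 3, 4 and 6 h to 837, 785 and 717 at 60, 66 and 72 h, a log2 change of -0.97 (adjusted p = 1.5e-06). Its slope kept its sign within each slide, at -0.020, -0.018 and -0.0057 per hour. A second, dimmer probe for PCDHA11 fell by 0.52 on the log2 scale (adjusted p = 0.011).

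PCDHA1 was not a steady fall. It went from 984 at 3 h to 1498 at 16 h, stood at 1418 on the 32 h array, and ended at 710 and 757 at 66 and 72 h. The cubic fit of its course had an adjusted p of 4.4e-07, and the straight line one of 0.0038. PCDHA3 had a similar course, from 381 at the start over 528 at 24 and 28 h to 231 on the 60 h and 333 on the last array, and over the arrays of 3 to 54 h its slope was 0.0018 per hour in place of -0.0074. PCDHA4 fell from 189, 187 and 180 at 3, 4 and 6 h to 110, 160 and 90.8 at 60, 66 and 72 h. PCDHA12 went from 265, 238 and 271 to 161, 242 and 155 at the same hours, and with the slide as a block its slope was 0.0015 per hour. The calls of PCDHA3, PCDHA4 and PCDHA12 were each lost when 1 of several arrays was left out, those at 60 h and 72 h among them. Without the 60 h array 4 of 13 alpha genes fell (30.8%), beside 28.5% of all genes. Without the 72 h array 4 alpha genes fell as well (30.8%), beside 28.2% of all genes. These shares are close to each other.

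**Figure D4:**
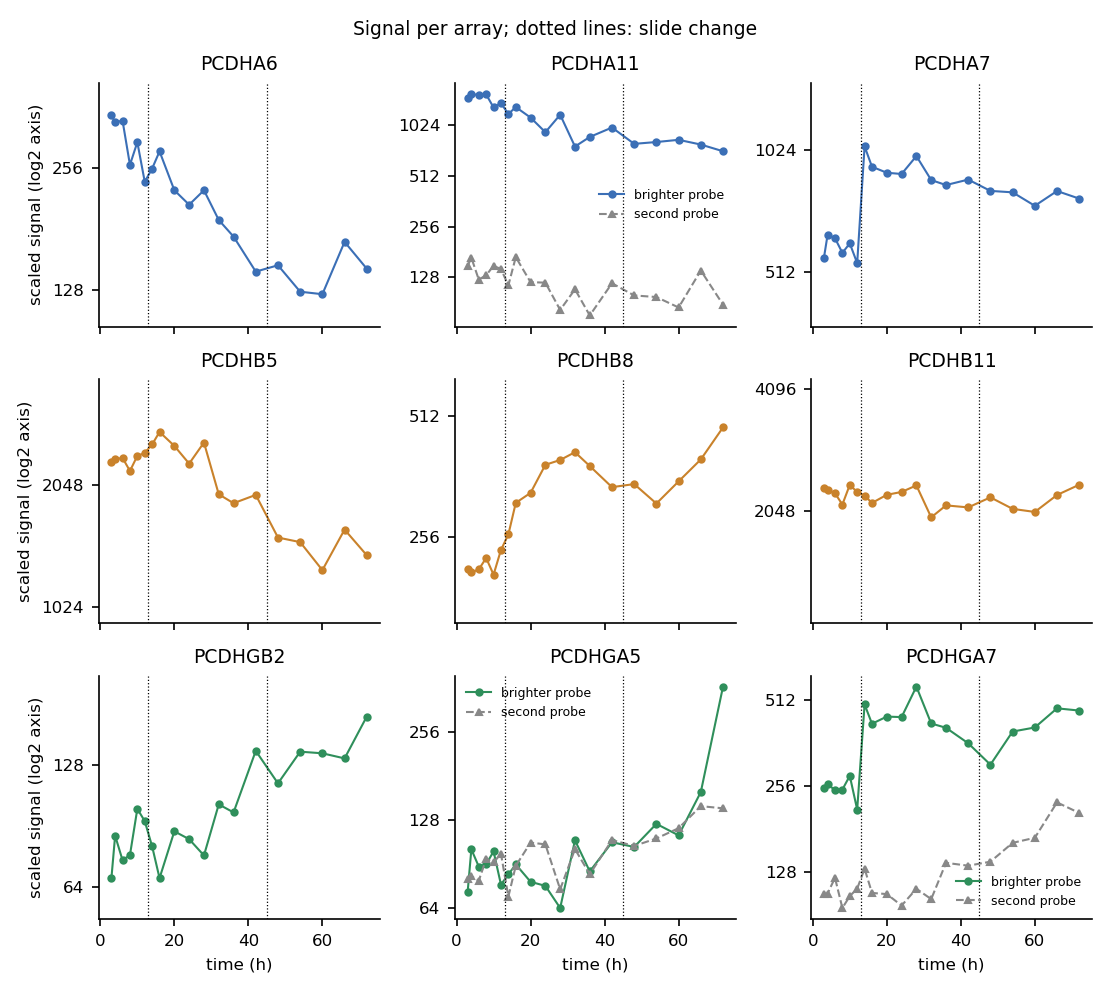
Scaled signal on each array (log2 axis) by hour for 9 clustered protocadherins, with the second probe of a gene as grey triangles and the change of slide as dotted lines. PCDHA6, PCDHA11 and PCDHB5 go down and PCDHB8 and PCDHGB2 go up. PCDHB11 keeps within 1970 and 2372. PCDHA7 and the brighter probe of PCDHGA7 step up between 12 and 14 h, where slide 1 ends.

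PCDHA9 was the alpha gene that rose. It read 70.6, 69.4 and 73.7 at 3, 4 and 6 h, went down to 33.7 at 14 h, where it was not well above background, and reached 84.4, 94.5 and 107 at 60, 66 and 72 h (log2 change 0.41, adjusted p = 0.0020). The early and late arrays did not overlap, but the array median ended the call (adjusted p = 0.068). Of the alpha genes not called, PCDHA7 read 538 on the 12 h array, the last of slide 1, and 1045 on the next, the first of slide 2. Its 6 arrays of slide 1 lay between 538 and 631 and the 13 others between 745 and 1045, and its slopes within the slides were -0.010, -0.0076 and -0.0019 per hour. PCDHA5 kept between 63.4 and 149 (adjusted p = 0.36). PCDHA13, at 39.8 to 79.6, was well above background on 17 arrays (adjusted p = 0.58). PCDHA10 read 921 at 14 h and 74.5 to 124 on the other arrays.

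Of the C-type genes, PCDHAC2 fell and the others were not called. PCDHAC2 read 116, 119 and 158 at 3, 4 and 6 h, peaked at 184 at 14 h, and read 99.8, 66.6 and 88.1 at 60, 66 and 72 h (log2 change -0.63, adjusted p = 0.0016). PCDHAC1 read 114, 124 and 444 at 3, 4 and 6 h, went down to 69.5 at 14 h and ended at 229 and 216 on the last 2 arrays (adjusted p = 0.19). Without the 6 h array it was called rising. PCDHGC4 went from 64.5 at 3 h to 135 at 72 h (adjusted p = 0.083), and was called rising without the 4 h or the 14 h array. Its second, dimmer probe read 28.7, 36.1 and 29.7 at 3, 4 and 6 h and 22.3, 37.3 and 46.5 at 60, 66 and 72 h. Among these arrays that probe was not well above background at 6, 60 and 72 h. PCDHGC5 read 210 and 103 at 20 and 24 h against 22.9 to 57.9 on the other arrays (adjusted p = 0.10). The transcript of the PCDHGC3 probe is NM_032402, and its signals of 5.01 to 27.1 say nothing of other transcripts of that gene.

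The beta genes that fell were PCDHB5 and PCDHB2. PCDHB5 read 2338, 2370, 2388, 2217, 2416 and 2455 on slide 1. On slide 2 it lay between 2311 and 2768 up to 28 h and read 1941, 1845 and 1934 at 32, 36 and 42 h. On slide 3 it read 1517, 1478, 1260, 1588 and 1372, all below every array of the first 2 slides. The log2 change was -0.76 (slope -0.014 per hour, SE 0.0019, adjusted p = 5.4e-06), and the slide block gave an adjusted p of 0.057. PCDHB2 went from 1286, 1247 and 1199 at 3, 4 and 6 h to 810, 1016 and 1014 at 60, 66 and 72 h (adjusted p = 9.3e-04). Its second probe fell by 0.49 on the log2 scale (adjusted p = 9.6e-05).

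PCDHB8 rose, with a slope above 0 within each slide. Its signals were 214, 210, 213, 228, 207 and 238 on slide 1. They were 260, 312, 330, 387, 398, 416, 384 and 341 on slide 2 and 347, 311, 352, 399 and 479 on slide 3. No array of slide 1 reached the lowest of the later ones. The mean went from 213 early to 407 late, a log2 change of 0.94 (slope 0.014 per hour, SE 0.0026, adjusted p = 2.0e-04). PCDHB9 went from 144, 177 and 180 at 3, 4 and 6 h to 236, 330 and 386 at 60, 66 and 72 h, with a single reading of 481 at 16 h (adjusted p = 0.036). Its call was lost without the 3, 8, 14, 66 or 72 h array. PCDHB10 went from 69.0, 76.1 and 74.0 to 110, 102 and 113 at the same hours (log2 change 0.57, adjusted p = 0.0020). At 14 and 16 h, the first arrays of slide 2, it read 56.3 and 46.5 and was not well above background. PCDHB4 rose from 90.3 to 123 and PCDHB14 from 182 to 226 between the early and late means, with adjusted p-values of 0.011 and 0.0021. The rises rest on the scaling: on the array median PCDHB8 alone of the 5 stayed called, and on the spike-in RNA none did, with slopes of -0.00039 for PCDHB4 and -0.00076 for PCDHB14 per hour.

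The other tested beta genes were not called. PCDHB11 kept within 1970 and 2372 on all 19 arrays, with a slope of -0.00098 per hour (SE 0.0011). PCDHB13 lay between 1401 and 1960, with all of its arrays from 14 to 28 h above those of slide 1, and PCDHB15 between 513 and 680. PCDHB16 lay between 175 and 275 and the pseudogene PCDHB18P between 127 and 249. PCDHB12 lay between 45.1 and 77.5, and PCDHB17P passed background on 12 arrays. On the array median scale PCDHB11, PCDHB13, PCDHB15 and PCDHB16 were called falling, as were PCDHB2 and PCDHB5.

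Most gamma calls needed the arrays after 54 h. Over the arrays of 3 to 54 h 2 gamma genes were called rising, PCDHGB2 and PCDHGB3, beside 23.6% of all genes rising and 27.5% falling. The median gamma change was 0.034, 0.16, 0.70 and 0.42 on the arrays of 54, 60, 66 and 72 h, beside -0.020 to -0.067 for all genes at those hours. On the array median it was -0.26, -0.11, 0.32 and -0.035, beside -0.32, -0.31, -0.44 and -0.52 for all genes. On the spike-in RNA the direction turned, with 0.23, 0.0043, -0.18 and -0.47 beside 0.17, -0.20, -0.93 and -0.96 for all genes. Within slide 3 alone the slope was above 0 for 13 of 15 gamma genes, with a median of 0.021 per hour, against 48.1% of all genes with a median of -0.00093. On slide 1 it was above 0 for 7 of 15 and on slide 2 for 10 of 15, against 48.7% and 49.9% of all genes. On the array median the slide 3 median was 0.013 per hour for gamma genes and -0.0083 for all genes. Of the beta genes 12 of 14 also had a slope above 0 on slide 3.

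PCDHGB2 had the smallest adjusted p of the members that rose. Its signals were 67.3, 85.5, 74.4, 76.6, 99.6 and 92.9 on slide 1. They were 80.4, 67.1, 87.6, 83.8, 76.4, 102, 97.6 and 139 on slide 2 and 115, 138, 137, 133 and 168 on slide 3. Every array from 42 h on lay above all those before. The log2 change was 0.95 (slope 0.016 per hour, SE 0.0020, adjusted p = 4.1e-06). The probe was not well above background at 14 and 16 h. The gamma rises also rest on the scaling. Of the 7 gamma genes that rose, PCDHGB2 and PCDHGA5 alone stayed called on the array median. On the spike-in RNA PCDHGA5 alone did.

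PCDHGA5 had the largest late minus early increase among the tested members, 1.11 on the log2 scale (adjusted p = 0.0010), but it rests in part on 1 reading. Its brighter probe read 72.9, 102 and 89.0 at 3, 4 and 6 h and 114, 160 and 367 at 60, 66 and 72 h. The second probe read 141 at 72 h, rose by 0.73 (adjusted p = 2.8e-04) and had no such last reading. PCDHGB3 rose from 75.5, 89.8 and 88.7 at 3, 4 and 6 h to 177 at 42 h and stood at 127, 157 and 146 at 60, 66 and 72 h (adjusted p = 0.0038). PCDHGB1 went from 71.2, 84.7 and 78.9 to 105, 136 and 156 at the same hours (adjusted p = 0.0040), while its second probe was not called (adjusted p = 0.070). PCDHGA3 went from 205, 203 and 204 to 278, 317 and 308 (adjusted p = 0.0068), and its slope was -0.0025 per hour on the spike-in RNA.

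**Figure D5:**
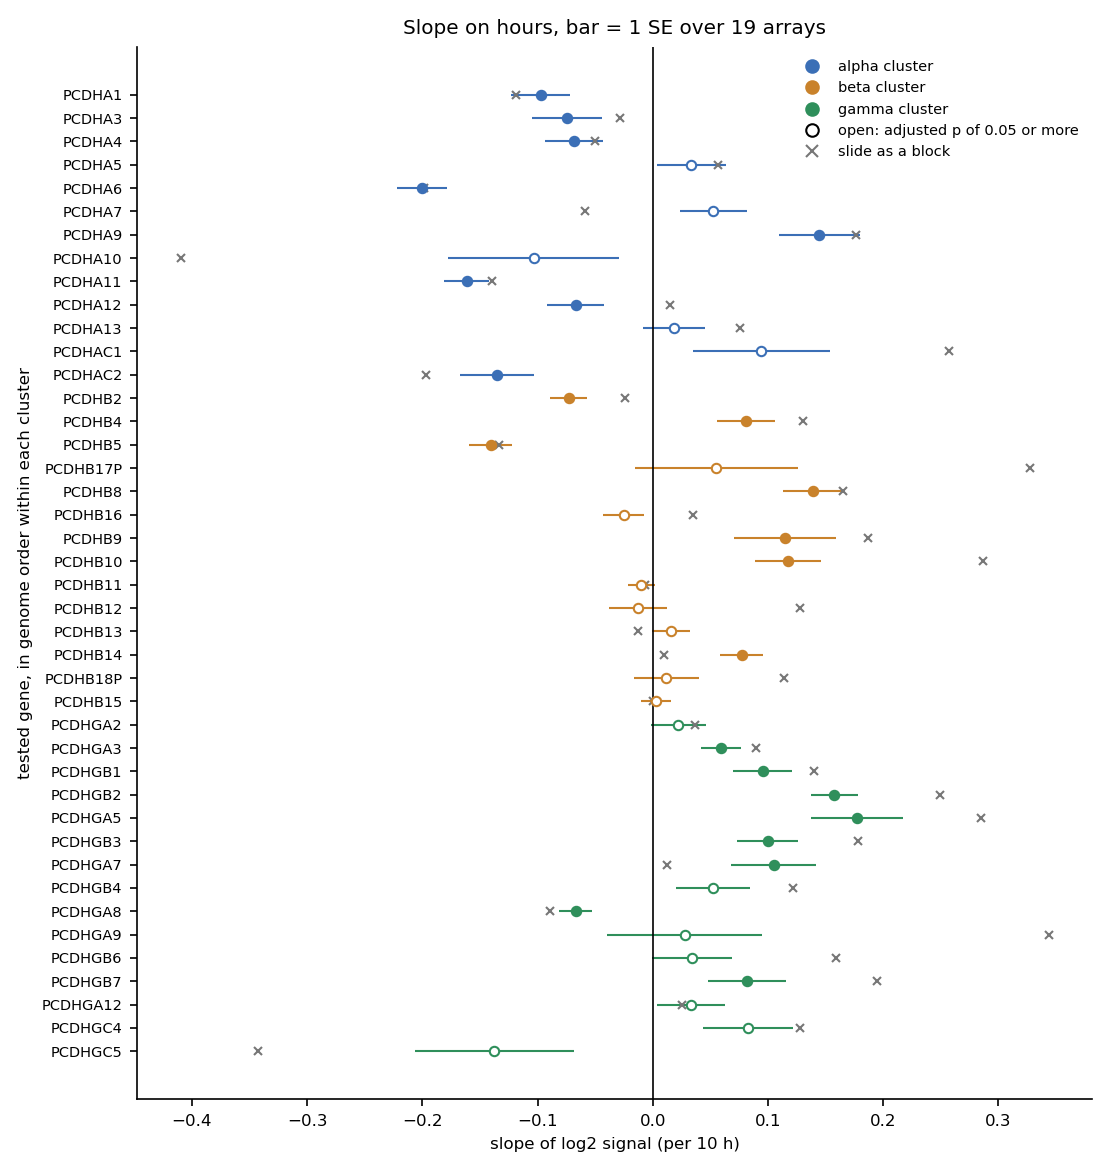
Slope of log2 signal per 10 h (x axis) for each of the 42 tested members in genome order, with 1 SE over the 19 arrays as bars. Filled points have an adjusted p under 0.05, open points do not, and crosses give the slope with the slide as a block. Filled points lie mostly left of 0 in the alpha cluster and right of 0 in the gamma cluster, and PCDHA7, PCDHA12 and PCDHB13 are among those whose cross lies on the other side of 0.

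The probes of PCDHGA7 rose in different ways. The brighter one read 211 on the last array of slide 1 and 493 on the first of slide 2, and its slope with the slide as a block was 0.0012 per hour (adjusted p = 0.92). The dimmer one read 107, 108 and 122 at 3, 4 and 6 h and 169, 224 and 206 at 60, 66 and 72 h and rose by 0.82 on the log2 scale (slope 0.014 per hour, adjusted p = 1.4e-05), with 139 at 48 h. The probes of PCDHGB7 gave adjusted p-values of 0.049 and 0.63. Its 2 highest readings were 201 and 137 on the last 2 arrays, and its call was lost when any 1 of 14 arrays was left out.

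PCDHGA8 was the gamma gene that fell. It read 1343, 1372 and 1165 at 3, 4 and 6 h and 953, 939 and 901 at 60, 66 and 72 h (log2 change -0.47, adjusted p = 7.25e-04). The early and late arrays did not overlap, and it fell on the array median and on the spike-in RNA as well. A second, dimmer probe for PCDHGA8, at 7.50 to 34.6, was well above background at 12, 28 and 54 h alone. That probe was not tested, so the fall rests on the brighter probe alone. PCDHGA2 and PCDHGA12 had their lowest readings in the middle of the course. PCDHGA2 read 751 on the first, 519 on the 36 h and 888 on the last array, and PCDHGA12 read 279 on the first, 158 on the 14 h and 293 on the 66 h array. Neither had a slope that was called, and their cubic fits had adjusted p-values of 7.0e-06 and 1.6e-05. PCDHGB4 read 305 on the first and 453 on the last array, with 476 at 20 h (adjusted p = 0.18), and PCDHGB6 and PCDHGA9 were not called either.

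Some of the readings named above stand alone. At least 1 reading was 2-fold or more above both neighbouring time points in 7 of 49 tested member probes (14.3%), beside 8.00% of all tested probes. They were PCDHA10 at 14 h, PCDHAC1 at 6 h, PCDHB17P at 28 h, PCDHB9 at 16 h, PCDHGA9 at 8 h, PCDHGC5 at 20 h and the second probe of PCDHGB1 at 16 h. For PCDHGB1 the other probe read 101 on that array against 172. PCDHGC5 also read 103 at 24 h, so its 20 h reading did not stand alone.

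The genes that act on the clusters were taken as lists. Of 11 tested genes of CTCF and cohesin 7 fell and 0 rose by limma at an adjusted p under 0.05, beside 29.8% and 24.6% of all genes, which are also the shares to set beside the counts of the lists that follow. CTCF itself went from 1645 early to 950 late (adjusted p = 3.0e-05). The cohesin subunit STAG1 went from 209 to 86.0 and the cohesin regulator PDS5B from 869 to 488. Of 12 genes of DNA methylation and silencing 6 fell and 2 rose. UHRF1, which brings the maintenance methyltransferase to replicated DNA, went from 3433 to 1359, the de novo methyltransferase DNMT3A from 10883 to 4971 and DNMT3B from 181447 to 101131. The chromatin protein SMCHD1 went from 776 to 601 (adjusted p = 0.047), and the methylcytosine oxidase TET2 (81.3 to 119) and the repressor REST (866 to 1248) rose. On the array median neither TET2 (adjusted p = 0.23) nor REST (adjusted p = 0.40) stayed called, and their slopes turned negative with the slide as a block for TET2 (-0.0025 per hour) and on the spike-in RNA for REST (-0.00071 per hour). With the slide as a block 2 genes of each list, STAG1 and PDS5B, and DNMT3A and DNMT3B, stayed called. Whether these genes bear on the protocadherins was not tested.

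Partners, relatives and neighbours of the family were counted in the same way. Of 11 cytoplasmic partners WASF2, of the actin-regulating WAVE complex, rose and the kinase FYN and BRK1 fell. Of 7 genes of proteolytic processing the sheddase ADAM10 rose from 736 to 1019, and PSEN2 and NCSTN, of gamma-secretase, fell. The rises of WASF2 (adjusted p = 0.63) and ADAM10 (adjusted p = 0.30) were lost on the array median, and on the spike-in RNA their slopes were -0.0022 and -0.0012 per hour. The non-clustered protocadherins, which lie outside these clusters, went both ways: of 9 tested, PCDH11X (130 to 329) and PCDH19 rose and PCDH7 (289 to 98.0), PCDH8 and PCDH1 fell. PCDH19 lost its call on the array median (adjusted p = 0.19), and with the slide as a block PCDH7 alone stayed called. Of 13 classical cadherins and catenins 2 rose and 7 fell, with CTNNA2 and CDH5 rising and CDH2, CDH4 and JUP falling most steeply. CDH5 lost its call on the array median (adjusted p = 0.32), and with the slide as a block none of these 5 stayed called. Of 16 genes flanking or lying between the clusters 9 fell and 0 rose, DIAPH1, ZMAT2 and HARS1 most steeply. With the slide as a block 3 of the 16 fell, ZMAT2, HARS1 and DND1, and DIAPH1 was not called (adjusted p = 0.076). TAF7, which lies between the beta and gamma clusters, went from 21060 to 16384 (adjusted p = 0.0089), and at an adjusted p of 0.79 with the block.

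Cell identity markers changed over the same hours. All 9 pluripotency markers were well above background on all arrays, and 5 of them fell, while 4 of 9 mesoderm markers and 4 of 7 tested trophoblast markers rose, beside 29.8% of all genes falling and 24.6% rising. HAND1, which went from 48.0 to 236, is in both the mesoderm and the trophoblast list and is counted as rising in each. With the slide as a block 1 pluripotency marker fell and 0 mesoderm and 1 trophoblast marker rose. Of the neural markers SOX1, NEUROG1, NEUROG2 and NEUROD1 were never well above background, and STMN2 and ELAVL4 rose. The 4 of the 8 tested that fell were PAX6, TUBB3, MAP2 and SYP. PAX6 changed most, from 160 to 11.8 (log2 change -3.76), and was well above background on 10 arrays. With the slide as a block its slope was 0.0030 per hour. The summed neural signal was 40970 to 45900 on the early and 24023 to 30696 on the late arrays, and nearly all of it was TUBB3, which went from 41995 to 25858. STMN2 went from 125 to 286 and ELAVL4 from 56.6 to 91.9 (adjusted p = 0.43 on the array median), and with the slide as a block 0 neural markers were called. Of 6 tested endoderm markers 1 rose and 1 fell, and of 6 tested fibroblast markers 1 rose and 2 fell. In these bulk samples fewer cells that express a gene and less RNA of it per cell cannot be told apart, and the part of a changing cell mixture in the protocadherin courses was not tested.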

How the data were processed

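Per the labels, 19 one-colour Agilent arrays were hybridised, 1 per time point. The authors deposited the output of Agilent Feature Extraction 10.10.1.1, whose processed signal is an intensity with background subtracted and no scaling between arrays. They also deposited a table holding the same intensity times 1 factor per array, blank where the spot was not well above background. The factors were 0.905 to 1.38, with 1.0 for the 8 h array, and how they were set is not stated. The deposited 0 or 1 flags, a score for each spot, gave detection. Flagged and control spots were left out (0.632% flagged), spots of a probe averaged and the 75th percentile of each array (655 to 1003) subtracted on the log2 scale. The number of arrays limits the precision.

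limma 3.58.1 (R 4.3.3, Benjamini-Hochberg) gave slopes on hours for the 32113 probes that passed background on 5 or more arrays. A gene is represented by its brightest probe. The code was tested on simulated data. Named genes are, in each cluster, up to 5 steepest called in each direction, those detected on all 19 arrays, the C-type genes and those never detected, and up to 3 each way in other lists. The remaining member names were added after their values were seen. Members and lists were chosen with earlier results of these data known. Normexp (offset 50) used median pixel intensities. Alternatives were other scalings, filters, time scales, probe rules, the slide block, 3 to 54 h and each array left out. Python 3.11.15 with pandas 2.3.3 made the tables.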

Additional observations from a re-analysis of the deposited data

How the results depend on the processing

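No paired analysis was possible because no time point was measured more than once. The counts of rising genes, at 1 for alpha, 5 for beta and 7 for gamma, became 0, 1 and 2 on the array median, 0, 0 and 1 on the spike-in RNA, 0, 2 and 3 with normexp and quantile, and 0, 2 and 1 with the slide as a block. Restricted to genes well above background on all 19 arrays they were 0, 3 and 4. Over 3 to 54 h beta had 3 and gamma 2. Alpha had 2 with no filter on dim probes and 2 on log2 hours. The cubic fit tests any change over time, and its calls were sorted by the sign of the straight line. Sorted in this way alpha had 3 and gamma 11 called genes with a line above 0, which need not be steady rises. The counts of falling genes, at 7, 2 and 1, became 1, 0 and 0 with the slide as a block. For alpha they were 4 with no filter (26.7%, beside 22.3% of all genes) and 4 over 3 to 54 h (30.8%, beside 27.5%). For beta they were 6 on the array median and 6 on the spike-in RNA, and for gamma 2 on each of these. The median late minus early change was -0.82, -0.24 and 0.13 for alpha, beta and gamma on the array median, -1.09, -0.52 and -0.15 on the spike-in RNA, and 0.14 for gamma with normexp. Gamma genes well above background numbered 8 on all 19 arrays. The causes were not tested, apart from the shift of all genes by the scaling.

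Leaving out each array in turn gave 1 to 2 rising and 4 to 7 falling alpha genes, 4 to 5 rising and 2 falling beta genes, and 6 to 8 rising and 1 to 2 falling gamma genes. The extremes came without the 6 h array for rising alpha genes, without the 60 or 72 h array for falling alpha genes, and without the 20 h array for falling gamma genes, where PCDHGC5 was added. The median change ranged from -0.48 to -0.37 for alpha, 0.068 to 0.20 for beta and 0.37 to 0.62 for gamma. No slope of a gene called with or without the array left out changed sign.

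Slopes per hour that changed sign, among genes called in the fit as reported or under the alternative, were PCDHA3 over 3 to 54 h (0.0018), PCDHA12 with the slide block (0.0015), PCDHB13 on the array median (-0.0036), PCDHB15 on the array median (-0.0050) and the spike-in RNA (-0.0082), PCDHB4 (-0.00039), PCDHB14 (-0.00076), PCDHGA3 (-0.0025) and PCDHGB7 (-0.00031) on the spike-in RNA, and PCDHGB7 over 3 to 54 h (-0.0019). Genes called in neither fit also changed sign, such as PCDHA7 with the slide block (-0.0059) and PCDHA5 on the array median (-0.0019). Dim members lie near the detection limit, so their slopes rest on few arrays far above background.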
